A study of Graphilbum sp. with 6 samples.

Results

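The set held 7 of the 26694 assembled features of a Graphilbum sp. transcriptome, all described as assembly-line enzymes of secondary metabolism. Members were the features whose best database hit lay in Sporothrix, Grosmannia, Ophiostoma or Esteya, genera of the fungal order Ophiostomatales, and whose description held polyketide, nonribosomal, non-ribosomal, terpene, terpenoid or dimethylallyl. Of the 4613 features with such a hit, 4 were described as polyketide synthases and 3 as nonribosomal peptide synthetases. The words terpene, terpenoid and dimethylallyl matched 0 features of the class, so no terpene synthase was found by this rule. Descriptions were given for 13460 of the 26694 features, and searches by word cover those alone.

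Nonribosomal peptide synthetases (NRPSs) are multi-module enzymes that select amino acids, hold them on carrier domains and join them into peptides without a ribosome. Polyketide synthases (PKSs) build carbon chains from small acyl units by chemistry related to that of fatty acid synthase. In filamentous ascomycetes their products include siderophores, toxins, antibiotics and pigments such as melanin, and many of their genes are silent or weakly transcribed in pure culture. Terpene synthases, the remaining class sought, cyclize isoprenoid diphosphates.

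Hyphae were grown on potato dextrose agar for 5 days at 28 °C and washed in buffer. The 3 control libraries, called wild type in the series text, were labelled 24 h. The 3 nematode libraries were labelled 24 h with pine wilt nematodes (Bursaphelenchus xylophilus), of which about 300 were added. The nematode feeds on fungal hyphae as well as on pine. The replicates are called biological, with no word on what made them separate, so p-values measure the spread between these libraries, which may be partly technical. No strain or genotype other than Graphilbum sp. wild type is named.

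Values are TPM, a length-scaled share of the transcripts of a library, so the reads behind each value are unknown. Features of the class took 68.5% to 70.0% of TPM in the controls and 28.7% to 39.4% in the nematode libraries. Another set of 13300 features, at 1 TPM or more in every nematode library and below 1 TPM in every control, took 39.9% to 53.7% of TPM in the nematode libraries and is called seen with nematodes alone. Nematode words such as vitellogenin matched 0 of the 13460 descriptions. The other features have no description, so this search cannot tell whether RNA of the added nematodes was present. Whether features seen with nematodes alone came from the fungus or from the nematodes was not tested. To compare Ophiostomatales-hit features with each other, each library was divided by their median ratio, and such values are called rescaled TPM. Of 4568 features then tested, those with at least 1 rescaled TPM in 3 libraries, 28 rose (0.613%) and 2 fell (0.0438%), at a limma adjusted p below the threshold of 0.05. Control replicate 3 stood apart: without it, 349 rose and 280 fell.

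Of the 7 members, 6 could be tested. Of these, 1 rose with nematodes, an NRPS, and 0 fell, and the other 5 did not pass. Their median log2 fold change was -0.19, beside -0.03 over all features tested. The members were weakly transcribed: the median of their mean levels was 1.55 rescaled TPM, against 72.0 for all features tested. The filter admitted several members narrowly. TRINITY_DN13344_c0_g1 and TRINITY_DN11738_c0_g3 reached 1 rescaled TPM in just 3 libraries, and the untested TRINITY_DN17013_c0_g1 reached it in 1. In TPM as deposited, only TRINITY_DN8287_c0_g1 and TRINITY_DN2239_c0_g1 had 1 TPM in 3 or more libraries.

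The NRPS feature TRINITY_DN8287_c0_g1, with its best hit in Grosmannia clavigera, a blue-stain fungus of pines carried by bark beetles, was the member that rose. Control replicates 1 to 3 had 3.19, 3.24 and 2.48 rescaled TPM, and nematode replicates 1 to 3 had 20.3, 18.01 and 20.8. All 3 nematode libraries lay far above all 3 controls. The means were 2.97 ± 0.425 and 19.7 ± 1.47 rescaled TPM (SD, n = 3), a ratio of 6.63. On the log2(rescaled TPM + 1) scale, which understates the change of weakly expressed features, the fold change was 2.38 ± 0.16 SE (95% interval 2.00 to 2.77; limma adjusted p = 0.00238). It ranked 7th by size among the 28 rises.

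The rise was present without rescaling. As deposited, the same feature had 2.13, 2.09 and 1.66 TPM in controls. Nematode libraries had 5.93, 7.85 and 8.25 TPM, again all above the controls. Its class took a smaller share of TPM in those libraries: in the fit over all deposited features, 0.471% of Ophiostomatales-hit features rose and 78.8% fell, or 79.2% in either direction. There its log2 fold change was 1.49 ± 0.16 SE (limma adjusted p = 8.42e-05, 21817 features tested). Of all features in that fit 61.4% rose and 25.5% fell, or 86.9% in either direction. These are bulk libraries, so more RNA per cell and more cells with this RNA cannot be told apart.

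The second NRPS, TRINITY_DN2239_c0_g1, with a best hit in Sporothrix insectorum, was the most abundant member in each control. Its controls, in replicate order, had 17.4, 16.4 and 32.3 rescaled TPM, and its nematode libraries 15.2, 17.7 and 15.7. The groups overlapped, and control replicate 3 was high while the other 5 libraries lay close together. Its means were 22.0 ± 8.89 and 16.2 ± 1.32 rescaled TPM (SD, n = 3). The log2 fold change of -0.36 ± 0.26 SE did not pass (95% interval -0.97 to 0.25; limma adjusted p = 0.698), and was -0.05 without control replicate 3 (limma adjusted p = 0.781). In deposited TPM it was 11.7, 10.5 and 21.6 in controls and 4.45, 7.71 and 6.22 with nematodes, and fell (log2 fold change -1.09, limma adjusted p = 0.0130), as did 78.8% of its class on that scale.

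The third NRPS, TRINITY_DN13344_c0_g1, again with a Grosmannia clavigera hit, was close to the lower limit of the filter. It had 1.30, 1.12 and 0.762 rescaled TPM in control replicates 1 to 3. With nematodes it had 0.889, 1.35 and 0.428. The groups overlapped (log2 fold change -0.15 ± 0.33 SE, 95% interval -0.94 to 0.65, limma adjusted p = 0.901). The interval is wide, so a change of moderate size in either direction was not detectable.

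**Figure D1:**
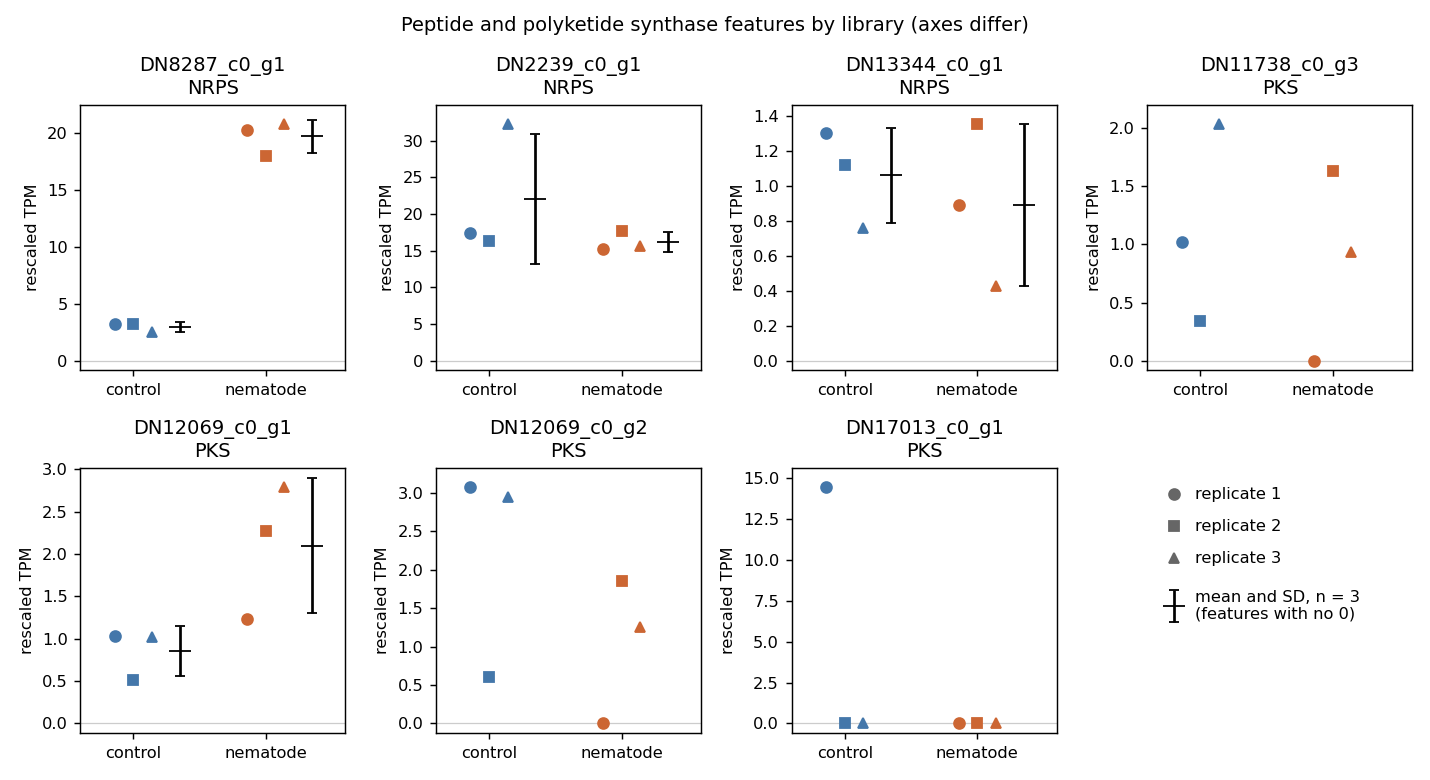
Rescaled TPM of the 7 members in each library, 1 panel per feature with its own axis; colours mark the groups, symbols the replicate, and bars the mean and SD of 3 libraries where no library is at 0. In TRINITY_DN8287_c0_g1 the nematode libraries lie between 18.01 and 20.8, above controls of 2.48 to 3.24, while TRINITY_DN17013_c0_g1 is above 0 in control replicate 1 alone.

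The order of the NRPS features changed between the groups. In deposited TPM, the ratio of TRINITY_DN8287_c0_g1 to TRINITY_DN2239_c0_g1 was 0.183, 0.198 and 0.0769 in control replicates 1 to 3. With nematodes it was 1.33, 1.02 and 1.33 in the same order. Such a ratio within a library does not depend on any division of that library, and all nematode ratios lay above all control ratios. On the log2 scale it went from -2.83 ± 0.758 to 0.28 ± 0.222 (SD, n = 3), a difference of 3.11. An exact two-sided permutation test gave p = 0.1, the smallest that 3 against 3 libraries allow. The ratio was chosen after the values were seen.

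TRINITY_DN8287_c0_g1 alone held 5.98% to 14.6% of the summed TPM of the 7 members in controls and 42.1% to 53.9% with nematodes. The sum of all members was 35.1 ± 11.2 rescaled TPM in controls and 40.8 ± 2.76 with nematodes (SD, n = 3). Without TRINITY_DN8287_c0_g1 the sums were 32.1 ± 11.4 and 21.1 ± 3.73. By replicate these were 38.3, 18.9 and 39.0 in controls and 17.3, 24.8 and 21.1 with nematodes, so the groups overlapped. Control replicate 3 held the high value of TRINITY_DN2239_c0_g1, 32.3 rescaled TPM. Control replicate 1 held the polyketide synthase seen in 1 library alone, described next.

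Polyketide synthases of the set were at low levels, apart from 1 feature in control replicate 1. TRINITY_DN17013_c0_g1, with a best hit in Ophiostoma piceae, had 14.4 rescaled TPM (9.66 TPM) in control replicate 1 and was listed at 0 in the other 5 libraries. It was not tested, and a signal in 1 of 3 replicates gives no group difference. TRINITY_DN11738_c0_g3, also with an Ophiostoma piceae hit, had 1.02, 0.341 and 2.03 rescaled TPM in controls. In nematode replicates 1 to 3 it was listed at 0, 1.63 and 0.931. Its groups overlapped (log2 fold change -0.23 ± 0.50 SE, 95% interval -1.41 to 0.95, limma adjusted p = 0.894), and the sign turned to 0.16 without nematode replicate 1. Another feature of its assembly cluster, TRINITY_DN11738_c0_g1, described as an uncharacterized protein, was higher in every library, with 2.51, 2.47 and 3.35 rescaled TPM in controls and 3.25, 3.21 and 2.72 with nematodes.

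The other polyketide synthases, TRINITY_DN12069_c0_g1 and TRINITY_DN12069_c0_g2, carry the same cluster name in the assembly, so they may share sequence and are not independent. The first, with a Sporothrix insectorum hit, had 1.03, 0.512 and 1.02 rescaled TPM in controls and 1.23, 2.27 and 2.79 with nematodes. Its nematode libraries all lay above the controls, though nematode replicate 1 was close to them (log2 fold change 0.72 ± 0.33 SE, 95% interval -0.06 to 1.50, limma adjusted p = 0.496). Among all features tested, 10.5% had nematode libraries wholly above the controls and 7.79% wholly below. In deposited TPM its groups overlapped, at 0.69, 0.33 and 0.68 against 0.36, 0.99 and 1.11.

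The second, described as a partial sequence with a hit in Ophiostoma floccosum, had 3.08, 0.605 and 2.94 rescaled TPM in controls. With nematodes it was listed at 0, 1.86 and 1.26. Control replicate 2 lay below 2 of the nematode libraries, so the groups overlapped (log2 fold change -0.67 ± 0.55 SE, 95% interval -1.97 to 0.64, limma adjusted p = 0.724). Estimates for both features of this cluster thus had opposite signs, and neither passed. Whether reads were shared between them was not tested.

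TPM is per length, so levels can be ordered among members. In the controls TRINITY_DN2239_c0_g1 lay above every other member in each library, and TRINITY_DN8287_c0_g1 overlapped with TRINITY_DN12069_c0_g2 but lay above the remaining members, TRINITY_DN17013_c0_g1 in control replicate 1 excepted. The 4 tested members below TRINITY_DN8287_c0_g1 overlapped with each other in both groups. With nematodes TRINITY_DN8287_c0_g1 came first and TRINITY_DN2239_c0_g1 next, and the lowest value of the former, 18.01, was just above the highest of the latter, 17.7.

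Reading the descriptions after the values were known showed 3 more synthase features of the class that the words of the rule miss. A hybrid NRPS/PKS enzyme, TRINITY_DN18756_c1_g1, a type that joins peptide and polyketide chemistry in 1 protein, had a Grosmannia clavigera hit. It had 19.9, 20.7 and 20.6 rescaled TPM in controls and 19.5, 22.6 and 20.7 with nematodes. The 6 libraries were nearly level and the groups overlapped (log2 fold change 0.03 ± 0.11 SE, limma adjusted p = 0.942).

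Both remaining features were described as lovastatin nonaketide synthase, the PKS that in Aspergillus terreus builds the core of the sterol-lowering drug lovastatin. TRINITY_DN1776_c0_g1 had 10.3, 12.6 and 9.61 rescaled TPM in controls and 10.6, 10.9 and 11.2 with nematodes (limma adjusted p = 0.984). TRINITY_DN1776_c0_g4, of the same assembly cluster, had 4.73, 5.25 and 8.19 in controls and 5.85, 6.998 and 8.28 with nematodes (limma adjusted p = 0.802). Their log2 fold changes were 0.02 ± 0.15 SE and 0.21 ± 0.24 SE, and the groups overlapped in both. The hybrid enzyme served as another reference for TRINITY_DN8287_c0_g1: the log2 ratio of the NRPS to it was -2.79 ± 0.230 in controls and -0.09 ± 0.208 with nematodes (SD, n = 3; exact two-sided permutation p = 0.1, the smallest possible). This ratio was chosen after both profiles were seen, so it restates the rise of the NRPS and is not separate support.

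**Figure D2:**
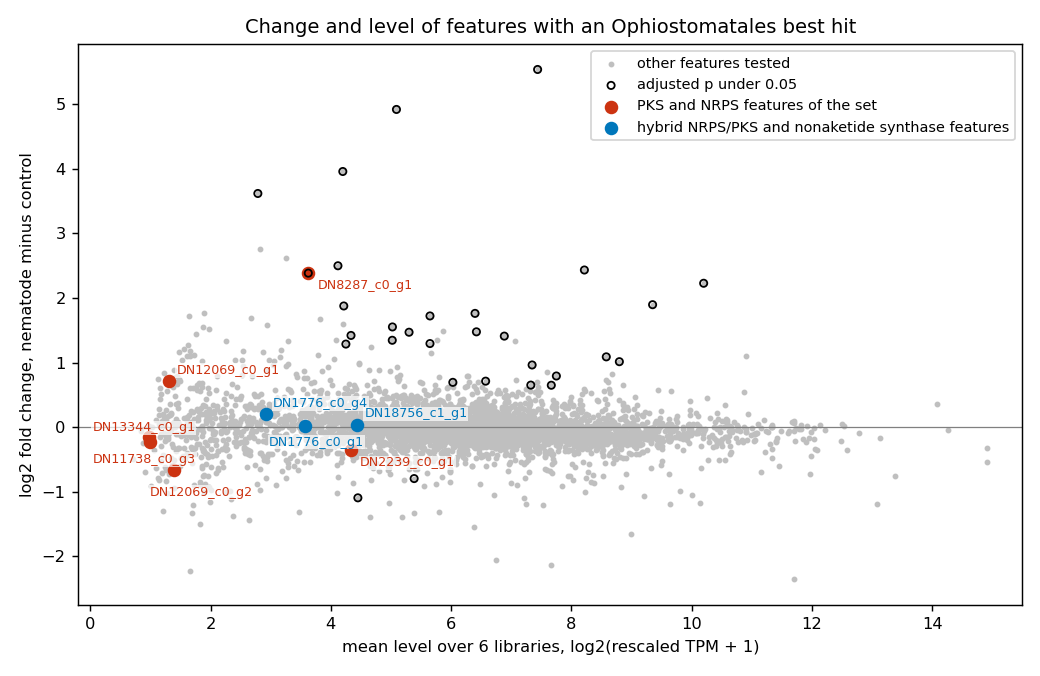
Log2 fold change (nematode minus control) against mean level over the 6 libraries, log2(rescaled TPM + 1), for the 4568 Ophiostomatales-hit features tested, with synthase features in colour and features past the threshold ringed. TRINITY_DN8287_c0_g1 is the ringed synthase feature, at a log2 fold change of 2.38, and the others lie between -0.67 and 0.72.

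Features whose profiles across the 6 libraries were most like those of the members were found by the root mean square difference of centred log2 values. Nearest to TRINITY_DN8287_c0_g1, of 4567 features compared, were the hypothetical protein SPSK_00507 (TRINITY_DN2710_c0_g1, difference 0.270), an extracellular serine-rich protein (TRINITY_DN19109_c0_g1, 0.278) and the hypothetical protein SPI_05293 (TRINITY_DN1849_c1_g2, 0.292). These 3 were the only features nearer than 0.3, whereas the median difference was 1.23. All 3 were much more abundant, for example TRINITY_DN19109_c0_g1 at 320.1 to 483.2 rescaled TPM in controls and 1516 to 2414 with nematodes. They are among the 28 rises themselves.

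TRINITY_DN2239_c0_g1 had much closer neighbours: a 4-carboxymuconolactone decarboxylase family protein (TRINITY_DN3160_c0_g1, difference 0.0334), vitamin H transporter 1 (TRINITY_DN1520_c0_g2, 0.0370) and a DUF455 protein (TRINITY_DN347_c0_g2, 0.0484). Like the NRPS, each was highest in control replicate 3, for example TRINITY_DN3160_c0_g1 at 54.7 rescaled TPM there and 26.4 to 29.3 elsewhere. For TRINITY_DN13344_c0_g1, 1893 features lay within 0.3, the closest a subtilisin-related peptidase S8 (TRINITY_DN4078_c0_g1), a transcription factor (TRINITY_DN20092_c0_g1) and a plasma membrane ferric-chelate reductase (TRINITY_DN18642_c0_g1), at 0.0742 to 0.111. Its levels were near 1 rescaled TPM, where adding 1 before taking log2 flattens a profile, so this count says little about the feature. The same limit applies to the polyketide synthases, which were also at low levels.

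Among the polyketide synthases, TRINITY_DN12069_c0_g1 was nearest to a carbohydrate esterase family 8 protein (TRINITY_DN1281_c0_g1), a carbohydrate-binding protein (TRINITY_DN6041_c0_g1) and a DUF895 membrane protein (TRINITY_DN2205_c0_g1), at 0.125 to 0.137. TRINITY_DN11738_c0_g3 was nearest to the hypothetical protein SPSK_02964 (TRINITY_DN141_c0_g3), a HEAT repeat protein (TRINITY_DN293_c0_g1) and a phosphatidylinositol 4-kinase (TRINITY_DN5787_c0_g8), at 0.185 to 0.247. TRINITY_DN12069_c0_g2 had no feature within 0.3. Its nearest was the polyketide synthase TRINITY_DN11738_c0_g3 at 0.327, and both were listed at 0 in nematode replicate 1. A polysaccharide deacetylase (TRINITY_DN7314_c0_g2) and the hypothetical protein CMQ_5288 (TRINITY_DN9118_c0_g1) followed at 0.344 and 0.366.

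**Figure D3:**
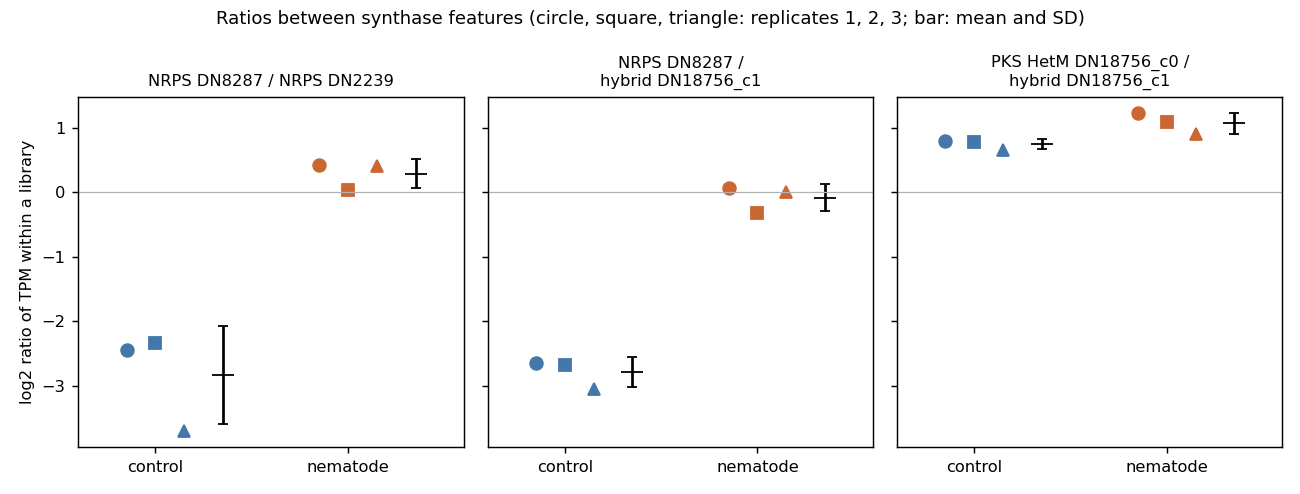
Log2 ratio of TPM between synthase features within each library, with the mean and SD of 3 libraries; such a ratio does not change when a library is rescaled. The NRPS TRINITY_DN8287_c0_g1 stood at -3.70 to -2.33 relative to TRINITY_DN2239_c0_g1 in controls and at 0.03 to 0.41 with nematodes, and the ratio of PKS HetM to the hybrid enzyme was 0.66 to 0.79 and 0.89 to 1.22.

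The same words also matched 7 features with best hits outside Ophiostomatales, which were tested in the fit over all deposited features. Of these, 6 were listed at 0 in all 3 controls and stood at 1 TPM or more in all 3 nematode libraries. They entered the fit through the nematode libraries alone, which fixed the direction of any call, so no p-value is given for them. Over that whole fit, 61.4% of features rose. The exception, polyketide synthase HetM (TRINITY_DN18756_c0_g1, best hit in Daldinia childiae), was present in every library. Its controls had 23.0, 22.8 and 21.8 TPM, above 13.3, 20.9 and 15.3 TPM in nematode replicates 1 to 3. The difference did not pass (log2 fold change of -0.45, SE 0.19, limma adjusted p = 0.0575), though without nematode replicate 2 it was -0.63 (limma adjusted p = 0.00949).

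HetM shares the cluster number DN18756 with the hybrid NRPS/PKS enzyme, though as a different component. Divided by the factors of the Ophiostomatales class, it had 34.5, 35.4 and 32.5 in controls and 45.3, 47.9 and 38.4 with nematodes. On that scale the sign of its log2 fold change turned to 0.35 ± 0.12 SE (limma adjusted p = 0.333), so its direction depended on the scaling. Its log2 ratio to the hybrid enzyme, also chosen after the values were seen, was 0.74 ± 0.0747 in controls and 1.07 ± 0.164 with nematodes (SD, n = 3; exact two-sided permutation p = 0.1, the smallest possible).

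The terpenoid word matched 1 feature, TRINITY_DN16518_c0_g1, named for the fold that terpenoid cyclases share with protein prenyltransferases, with a hit in the gut fungus Anaeromyces robustus. It was listed at 0 in controls and at 40.5, 30.9 and 34.0 TPM with nematodes. A dimethylallyl transferase of tRNA, TRINITY_DN10203_c0_g2, with a hit in the chytrid Synchytrium microbalum, was listed at 0 in controls and at 2.24, 1.43 and 2.04 TPM with nematodes. This enzyme modifies tRNA and does not make secondary metabolites. Its Ophiostomatales-hit counterpart under another name, tRNA isopentenyltransferase (TRINITY_DN19432_c0_g1), had 109.0 ± 8.49 and 98.7 ± 4.61 rescaled TPM (SD, n = 3; limma adjusted p = 0.692).

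The remaining 4 were polyketide synthases seen with nematodes alone. TRINITY_DN7704_c0_g2 (Gloeophyllum trabeum hit) had 11.9, 14.4 and 10.3 TPM and TRINITY_DN17952_c0_g1 (Peltigera membranacea hit) had 11.8, 8.22 and 7.99 TPM. TRINITY_DN8088_c0_g1 (Fusarium gaditjirri hit) had 3.90, 7.52 and 3.51 TPM. TRINITY_DN8088_c0_g3, described as reducing polyketide synthase PKS2 (Colletotrichum siamense hit), had 3.25, 5.81 and 3.09 TPM. Each of the 4 was listed at 0 in every control. The last pair share an assembly cluster, whose other features TRINITY_DN8088_c0_g2 and TRINITY_DN8088_c0_g5 have no description and were also at 0 in controls, so they are not separate evidence.

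The nematode libraries differed in how much of their TPM lay in each class, so the balance among those libraries was compared between features. By the log2 ratio of nematode replicate 1 to the mean of replicates 2 and 3, Ophiostomatales-hit features had a median of -0.52, with 5% to 95% of them between -0.91 and -0.17. Features seen with nematodes alone had a median of 0.38, with 5% to 95% between -0.38 and 0.94. The NRPS TRINITY_DN8287_c0_g1 stood at -0.44, TRINITY_DN2239_c0_g1 at -0.65 and TRINITY_DN13344_c0_g1 at -0.55, all inside the central range of their class. TRINITY_DN12069_c0_g1 was lower, at -1.54, outside that range.

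By this measure the polyketide synthases seen with nematodes alone were spread over both ranges. TRINITY_DN17952_c0_g1 stood at 0.54, near the median of features seen with nematodes alone. So did the cyclase or prenyltransferase feature TRINITY_DN16518_c0_g1, at 0.32, and the tRNA enzyme, at 0.37. The polyketide synthase TRINITY_DN7704_c0_g2, at -0.06, lay in the lower part of the range of those features and above the range of Ophiostomatales-hit features. TRINITY_DN8088_c0_g1 and TRINITY_DN8088_c0_g3 stood at -0.50 and -0.45, near the median of the Ophiostomatales-hit features. Of the Ophiostomatales-hit features 54.0% and 64.3% stood at or below these values, and of the 13300 features seen with nematodes alone 3.79% and 4.32%. The 2 unnamed features of their cluster stood at -0.38 and -0.61. HetM, present in controls, stood at -0.45. The organism these transcripts came from was not tested.

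**Figure D4:**
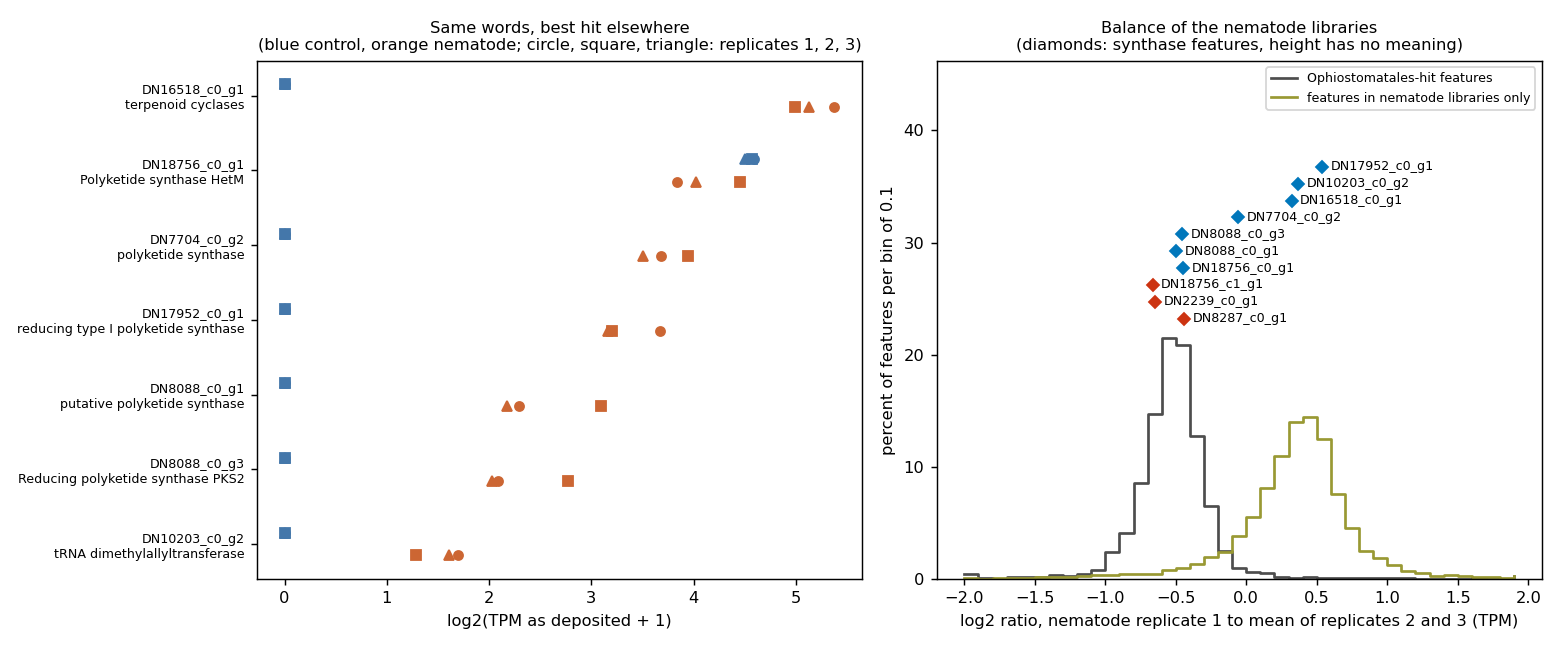
Left, log2(TPM + 1) in each library of the 7 features with the same words and a best hit outside Ophiostomatales; right, distribution of the log2 ratio of nematode replicate 1 to the mean of replicates 2 and 3 for Ophiostomatales-hit features and for features seen with nematodes alone. Diamonds mark synthase features of the class (red) and the word-matched features with other hits (blue), which include the tRNA enzyme. TRINITY_DN8088_c0_g1 and TRINITY_DN8088_c0_g3, at 0 in controls, stand at -0.50 and -0.45, values found in both distributions.

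Around the synthases, 8 lists of accessory genes of the class were read from the same rescaled fit, 107 distinct features in all. Of these 2 rose, 1 fell and 104 did not pass, and the median log2 fold change was -0.05. The shares that rose or fell over all features tested were 0.613% and 0.0438%. The lists were matched by words and hold some genes outside their names.

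No precursor enzyme passed. Of 12 isoprenoid features, among them mevalonate kinase, farnesyl and geranylgeranyl diphosphate synthases and several prenyl transferases, 0 passed (median -0.05). The smallest raw p was that of a geranylgeranyl diphosphate synthase (TRINITY_DN6017_c0_g3), at 42.7 ± 11.4 and 62.0 ± 11.8 rescaled TPM (SD, n = 3; limma adjusted p = 0.441). Of 4 acyl precursor features 0 passed (median -0.11). Here fatty acid synthase subunit alpha (TRINITY_DN322_c0_g1) had 156.3 ± 30.1 and 109.3 ± 12.3 (SD, n = 3; limma adjusted p = 0.313).

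Among 17 carrier, thioesterase and AMP-binding features, which include a cAMP-dependent protein kinase regulator by its name alone, 0 passed (median -0.08). The smallest raw p was that of malonyl-acyl carrier protein (TRINITY_DN6746_c0_g1), at 92.8 ± 8.45 and 115.6 ± 7.63 rescaled TPM (SD, n = 3; limma adjusted p = 0.352). No feature of the class matched phosphopantetheinyl, the word for the transferase that arms carrier domains. The 1 regulator matched, LaeA (TRINITY_DN388_c0_g1), a methyltransferase-like protein that controls secondary metabolism in Aspergillus, had 128.7 ± 17.5 and 130.9 ± 7.27 (SD, n = 3; limma adjusted p = 0.946).

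Tailoring enzymes, which oxidize or methylate such products, held both accessory rises. Of 34 tested, 2 rose and 0 fell, with a median of -0.13. A cytochrome P450 of the benzoate 4-monooxygenase type (TRINITY_DN7888_c0_g1) had 9.42, 12.7 and 8.34 rescaled TPM in controls and 24.0, 26.5 and 27.1 with nematodes. All nematode libraries lay above all controls (log2 fold change 1.29 ± 0.17 SE, limma adjusted p = 0.0341). TRINITY_DN7420_c0_g1 and TRINITY_DN13498_c0_g1, also described as benzoate 4-monooxygenase P450s, did not pass (log2 fold change -0.002 and 0.30, limma adjusted p = 0.998 and 0.906). The P450 monooxygenase TRINITY_DN1637_c0_g1 had 64.4, 73.0 and 76.3 in controls and 115.9, 113.3 and 122.3 with nematodes (log2 fold change 0.71 ± 0.10 SE, limma adjusted p = 0.0381), again with no overlap. A feature of its assembly cluster with the same description, TRINITY_DN1637_c0_g2, did not rise. It had 7.66 ± 1.33 and 5.21 ± 1.69 (SD, n = 3), with overlap (log2 fold change -0.51 ± 0.26 SE, limma adjusted p = 0.560).

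TRINITY_DN7888_c0_g1 lost its call without control replicate 1 or any nematode replicate (limma adjusted p = 0.129 to 0.198) and with replicate number as a block (0.158). In deposited TPM its groups overlapped, at 6.30, 8.18 and 5.58 in controls and 7.03, 11.5 and 10.8 with nematodes (log2 fold change 0.48, limma adjusted p = 0.0818). TRINITY_DN1637_c0_g1 lost its call without any library other than control replicate 3 (limma adjusted p = 0.150 to 0.213), with the block (0.295) and without the eBayes trend (0.0641), and in deposited TPM its sign turned (log2 fold change -0.11). P450s of these names also act in the breakdown of aromatic compounds, and the descriptions do not link them to a synthase.

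Of 11 features named for melanin or other secondary metabolites, which include both nonaketide synthase features and penicillin-binding proteins, 0 rose and 1 fell, with a median of 0.01. The fall was a 7alpha-cephem-methoxylase-like protein (TRINITY_DN17305_c0_g1), named for an enzyme of bacterial cephamycin synthesis. It had 54.3, 56.8 and 45.1 rescaled TPM in controls and 29.5, 29.3 and 29.6 with nematodes, with no overlap (log2 fold change -0.80 ± 0.12 SE, limma adjusted p = 0.0462). Its call was lost without any library other than control replicate 3 (limma adjusted p = 0.170 to 0.246), and with the block, 2 other scalings and both eBayes options (0.0502 to 0.322).

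Enzymes of dihydroxynaphthalene melanin, a wall pigment that starts from a polyketide, were singled out after their values were seen. Tetrahydroxynaphthalene reductase (TRINITY_DN772_c0_g1) had 37.3 ± 2.93 and 29.7 ± 1.50 rescaled TPM (SD, n = 3), and scytalone dehydratase (TRINITY_DN4246_c0_g2) had 6.99 ± 1.30 and 4.37 ± 1.39 (limma adjusted p = 0.354 and 0.464). A tyrosinase precursor of the same list (TRINITY_DN11625_c0_g1) went the other way. It had 0, 2.53 and 0.344 in controls and 2.09, 3.44 and 5.86 with nematodes, with overlap (limma adjusted p = 0.421).

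Siderophores are a common NRPS product in fungi, and of 11 iron and ornithine features 0 passed (median -0.06). The smallest raw p was that of a ferric reductase-like protein (TRINITY_DN4006_c1_g1), a class that reduces iron for uptake. It had 53.5, 48.6 and 64.8 rescaled TPM in controls and 90.7, 107.5 and 92.1 with nematodes, with no overlap (log2 fold change 0.79 ± 0.14 SE, limma adjusted p = 0.0735). The siderophore biosynthesis protein TRINITY_DN15884_c0_g1 had 47.0 ± 7.87 and 44.7 ± 1.21 (SD, n = 3; limma adjusted p = 0.901). Of 19 export features 0 passed (median 0.02). There the smallest raw p was that of a major facilitator multidrug transporter (TRINITY_DN15010_c0_g1), at 2.49 ± 0.705 and 6.15 ± 1.32 (SD, n = 3; log2 fold change 1.04, limma adjusted p = 0.198). Another feature of that description, TRINITY_DN12361_c0_g1, went the other way, at 2.28 ± 1.24 and 0.541 ± 0.128 (SD, n = 3; log2 fold change -1.03, limma adjusted p = 0.353).

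**Figure D5:**
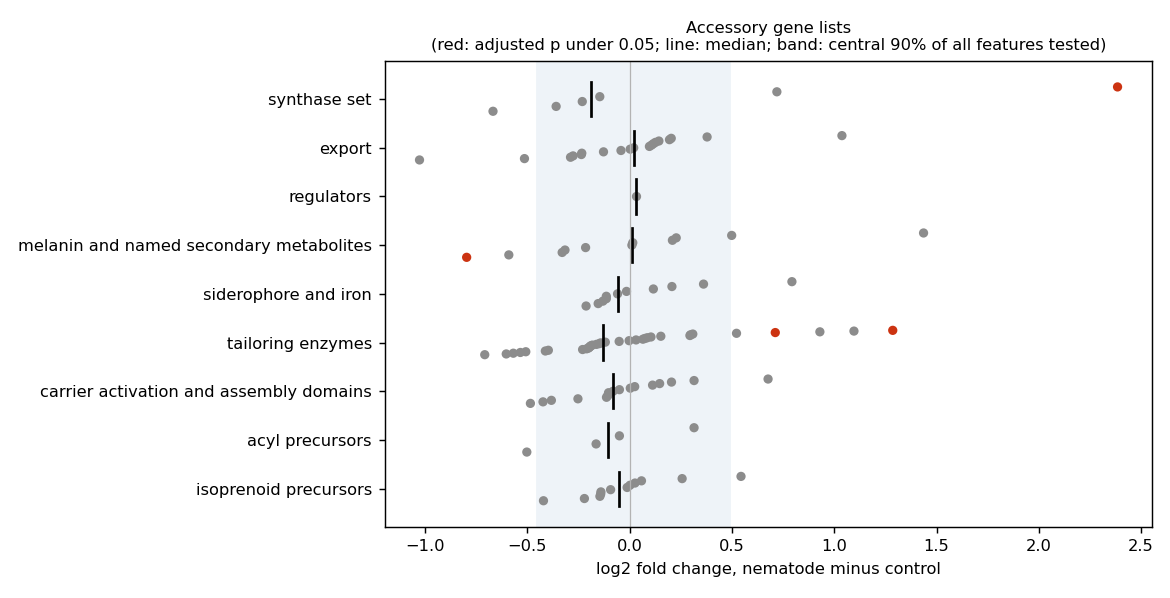
Log2 fold change (nematode minus control) of each tested feature of the 8 accessory lists and of the synthase set, in rescaled TPM, with red points past the threshold, black lines at the median and a band for the central 90% of all features tested. The red points are the NRPS at 2.38, the P450s at 1.29 and 0.71 and the cephem-methoxylase-like protein at -0.80.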

How the data were processed

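The authors deposited 1 table of TPM with 6 library columns; each library summed to 1e+06, and 2 further columns, the authors' group means, were left aside. The names follow Trinity's pattern. The aligner, quantification tool and settings were not given in the sources used here. Groups came from the titles. No genome was used and no sequence of the features is printed. Since TPM keeps no depth, counting error could not be estimated. Zeros are called listed at 0 and get no fold.

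Within the Ophiostomatales-hit features, 4505 of them above 0 in all 6 libraries, the median ratio to the geometric mean gave a divisor per library, and class totals were set to average 1e+06. Features with at least 1 rescaled TPM in at least 3 libraries were tested as log2(rescaled TPM + 1) with limma 3.58.1 in R 4.3.3 (lmFit, eBayes with a trend), nematode minus control, no covariate, Benjamini-Hochberg over all features of the fit, threshold 0.05. Features with other hits were tested alike on deposited TPM over all features. TMM factors were computed from their published formula. Scripts were tested on simulated data. Named were all members, the 3 nearest profiles of each tested member, and list members past the threshold or, with none, that of smallest raw p. Members, lists and rules were chosen with earlier results of these data known. Alternatives were pseudocounts of 0.1 and 5, filters, scalings, a replicate block, eBayes options and omission of each library.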

Additional observations from a re-analysis of the deposited data

How the results depend on the processing

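TRINITY_DN8287_c0_g1 passed under all 23 alternatives, at a log2 fold change of 1.49 to 2.70 and a limma adjusted p of 8.42e-05 to 0.0435. The other 5 tested members passed under none of the alternatives that could test them, except TRINITY_DN2239_c0_g1 in deposited TPM (-1.09, adjusted p = 0.0130). Signs turned in TRINITY_DN11738_c0_g3, to 0.065 without control replicate 3 and 0.16 without nematode replicate 1 (-0.53 to 0.16 over all omissions), and in TRINITY_DN13344_c0_g1, to 0.042 without nematode replicate 3 (-0.31 to 0.042 over all omissions). TRINITY_DN18756_c0_g1 turned to 0.35 with class factors, an alternative added after the data were seen, and TRINITY_DN1637_c0_g1 to -0.11 in deposited TPM. The cause was not tested.

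Class-wide rises and falls numbered 48 and 0 after scaling to the class total, 12 and 0 with the replicate block, and 21 and 3515 in deposited TPM, where library composition enters. Robust eBayes gave 1 fall. Omitting 1 library gave 7 to 349 rises and 0 to 281 falls, the highest without control replicate 3.

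In deposited TPM the calls in the lists, in either direction, were 11 of 12 isoprenoid, 4 of 4 acyl, 16 of 17 carrier and 23 of 33 tailoring features. Iron had 8 of 11, named metabolites 7 of 11, regulators 1 of 1 and export 13 of 18. Over all Ophiostomatales-hit features on that scale 79.2% were called, and 78.8% fell. Iron had 1 call, and named metabolites 0, after scaling to the class total and after quantile normalization. Named metabolites also had 0 with the replicate block, without a trend and with robust eBayes, and tailoring had 0 with the block and 1 without a trend. Omitting 1 library gave 0 to 10 calls in tailoring, 0 to 2 in carrier and in iron, and 0 to 1 in isoprenoid, named metabolites and export. The highest count of each list came without control replicate 3. In that fit 349 of all 4552 features tested rose and 280 fell.

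Deviations of same-numbered libraries correlated at 0.148, -0.434 and -0.281, and those of differently numbered libraries at -0.231 to 0.414. With 3 libraries per group these values depend on each other, so they cannot show whether replicate numbers pair the libraries. With the replicate block TRINITY_DN8287_c0_g1 had an adjusted p of 0.0407. Levels near 1 rescaled TPM, with unknown depth, limit what can be said of the polyketide synthases.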
